A study of Bos taurus with 27 samples.

Results

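SLA2, an adaptor protein of lymphocytes, and 9 genes of the T-cell receptor and its closest partners (CD3D, CD3E, CD3G, CD247, CD2, CD8A, CD4, LCK and ZAP70) were followed in the rumen epithelium (RE) of fattening cattle. SLA2 was chosen because its level on these arrays fell from the early to the middle stage and then rose past its early level, and the question was whether the other T-cell genes took the same course within the animals. The 10 genes are those whose name on the array equals one of these symbols, out of 14952 gene names, and each was measured by 1 probe. Because the course of SLA2 was the reason for choosing it, its values are given as a description without a test, and the counts of called genes cover the other 9.

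Biopsies of the RE were taken from 9 Japanese Black cattle, each sampled in the early stage of fattening (14 months of age), in the middle stage (21 months) and in the late stage (29 months). All of them were castrated bulls carrying a rumen fistula, and all were fed a concentrate with rice straw throughout, so that no group was left untreated and stage, age and feeding history move together. RNA of each biopsy was hybridized to a one-color bovine microarray, which gave 9 arrays per stage. A level is the log2 of the background-subtracted spot intensity relative to the median of its array, a change is a difference of levels, and a probe was called when its Benjamini-Hochberg adjusted P in limma over 15008 probes was below 0.05.

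On a T cell, the antigen receptor is carried to the surface by the CD3 chains (gamma, delta and epsilon) and the zeta chain encoded by CD247, whose cytoplasmic tails hold the tyrosines that pass the signal on. The coreceptors CD4 and CD8 bring the kinase LCK to the receptor, LCK phosphorylates these tyrosines, and the kinase ZAP70 docks on them and phosphorylates adaptors downstream. SLA2 (SLAP-2) and its paralog SLA are adaptors that bind CBL, a ubiquitin ligase, and lower the amount and the signaling of antigen receptors on lymphocytes. T cells lie within and beneath the stratified epithelium of the rumen, so that in a biopsy of this kind fewer T cells and less RNA per T cell cannot be told apart.

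The probes behind the results are given by their positions on the UMD3.1 build, as the array annotation lists them, and by their opening 30 bases of 60, in lower case since no part of them is marked. They are shown for SLA2, for the 3 CD3 genes that moved in different directions and for CD4, which gave no usable signal, so that each value can be traced to the stretch of RNA it reports on. The probe of SLA2 lies at chr13:66368939-66368998. Those of CD3E (chr15:29449163-29449222), CD3D (chr15:29458656-29458716) and CD3G (chr15:29469689-29473567) lie within 24405 bases of each other, and the CD3G probe covers 3879 bases of the genome, more than its own length. The CD4 probe is listed at chr5:103997798-104000177. The array lists the positions of CD3E and CD3G in ascending order and those of SLA2, CD3D and CD4 in descending order.

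SLA2: gtgccacctcccagagattctgatttcatt

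CD3D: ccagcatcacattgctacaaggaacagaag

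CD3E: ccatctctggaaacactgttgagctgacat

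CD3G: cagccacctgaggaagaactgaacccaaga

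CD4: agttgcagcagaaagtgaaactcgtggtga

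Facts of the arrays bear on all that follows. The middle-stage arrays were dimmer than the others, with median intensities of 8.22 to 28.7 against 35.2 to 48.6 at the early and 32.2 to 47.0 at the late stage, and with 48.5 to 71.5% of probes well above background (the call of the scanner software) against 68.8 to 78.1% and 68.4 to 73.7%. The median change of all probes was 0.33 from early to middle (the first period), −0.28 from middle to late (the second period) and 0.03 from early to late (the total period), and for the first 2 of these it took the other sign under cyclic loess scaling fitted on bright probes (−0.14 and 0.16). The 8 early arrays of animals 1 to 8 shared a slide, early animal 9 shared another with middle animals 1 to 7, and the late arrays lay on 2 slides of their own. The early array of animal 9 was the highest early array in 12 of 19 lists of other genes, among them the pan-leukocyte list (mean level 3.79, against at most 3.15 in the other 8). Stratified epithelium stood well above background for 15 of its 16 genes on the array in at least 1 whole stage, against 4 of 12 liver genes (APOA1, APOA2, TTR and AHSG) and 4 of 11 neutrophil genes (S100A8, S100A12, CSF3R and CXCR2). The liver genes ALB, FGA, CYP2E1 and AMBP and the neutrophil genes ELANE, CAMP and PGLYRP1 were not well above background on any of 27 arrays.

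The level of SLA2 traced a deep trough. At the early stage it ran from 2.98 to 4.45 with a median of 3.25, at the middle stage from 0.93 to 1.85 with a median of 1.31, and at the late stage from 4.56 to 5.37 with a median of 4.83. The stages did not overlap. Such a separation, in the same directions, was shown by 6.71%, 10.1% and 3.95% of all probes in the first, second and total period. For SLA2, early animal 9, at 4.45, was the early array nearest to the late ones. The mean levels were 3.42 ± 0.46, 1.31 ± 0.34 and 4.94 ± 0.31 (SD, n = 9 each), a change of −2.10, then of 3.62, and of 1.52 over the total period, or 0.233, 12.3 and 2.87 as folds of linear intensity. In each of 9 cattle the middle level was the lowest and the late level the highest, a pattern shown by 1.66% of all probes, and SLA2 was well above background on all 27 arrays.

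**Figure D1:**
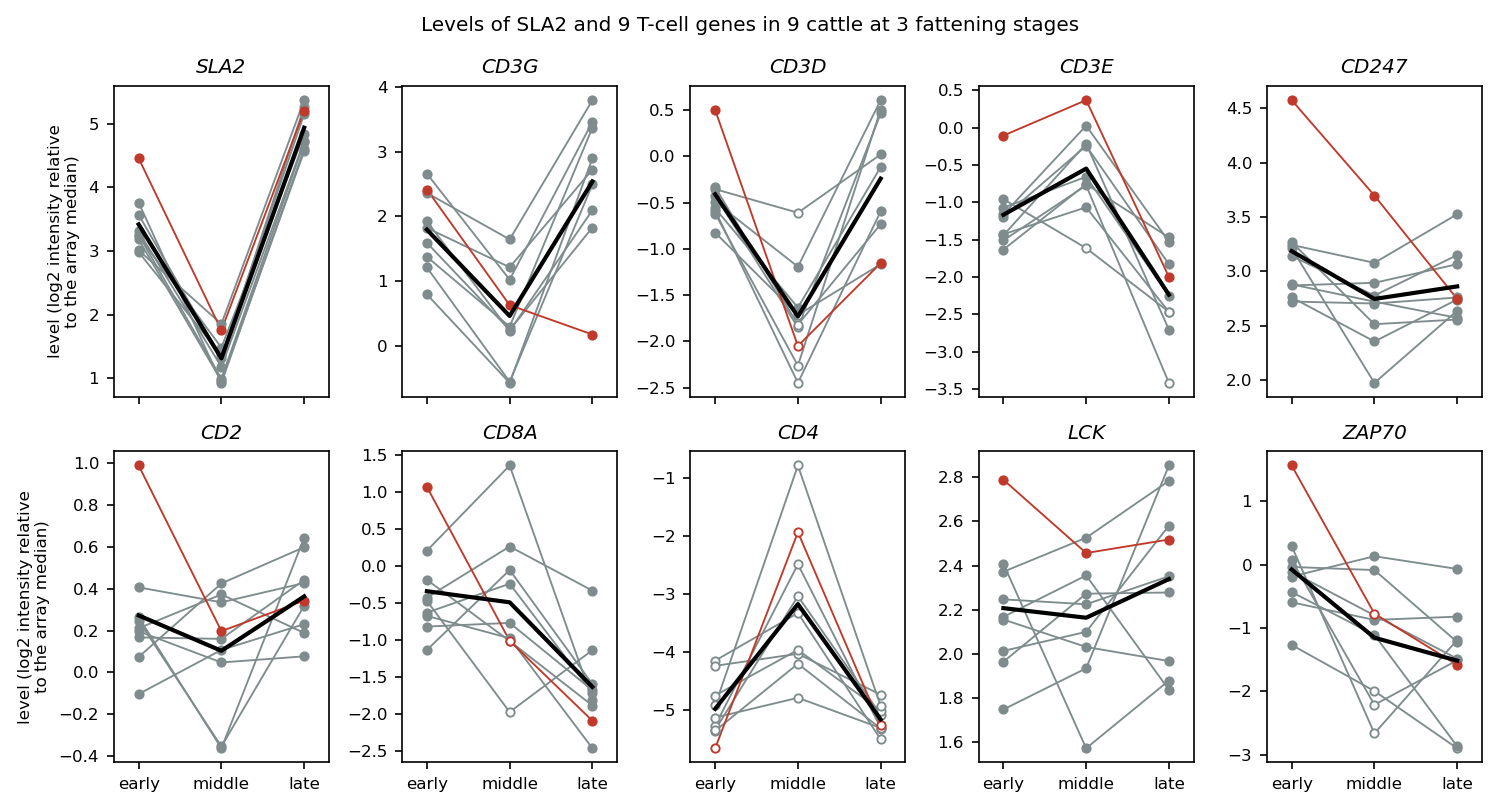
Level (log2 intensity relative to the array median, vertical axis) of each gene at the 3 stages (horizontal axis), with 1 line per animal, animal 9 in red, the mean in black, and open points where the probe was not well above background. SLA2, CD3G and CD3D dip at the middle stage, CD3E peaks there, and every CD4 point is open.

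Among the other 9 genes, 2 CD3 genes were lower at the middle stage and higher again at the late stage by the test, CD3G and CD3D, the latter with 2 of 9 middle arrays well above background. Both fell in the first period and rose in the second, which share the 9 middle-stage arrays, and 18.6% of all probes were called in the same directions in both. Neither was called higher at the late than at the early stage, whereas SLA2 ended at 2.87 times its early intensity; 2.36% of all probes were called lower, then higher and then higher overall. Of 16 genes of the stratified epithelium, 6 (KRT6A, DSC2, DSP, EPCAM, SFN and IVL) fell and then rose with both changes called. Another 2 took the reverse course, DSG3 and KRT4, the latter on a probe never well above background. KRT14, KRT5 and CDH1 were called lower in the first period (−1.12, −0.56 and −0.47). Their second changes (0.05, 0.11 and −0.18) were not called. KRT10, KRT15, TP63, PKP1 and DSG1 were called in neither period. Of the 10165 probes well above background in at least 1 whole stage, 27% fell and then rose with both changes called. Among the 6, IVL (involucrin), a protein of the cornified envelope, changed the most, by −1.99 and then by 2.57 (SE 0.19 each). The part of the epithelial genes in the courses of SLA2, CD3G and CD3D was not tested. When early and late arrays together were set against the middle stage in 1 contrast, 4 of the 9 genes were called: CD3G and CD3D were lowest at the middle stage, and CD3E and CD4 highest. In that contrast 73.1% of all probes were called, 25.3% with the middle stage lowest and 47.9% with it highest, so that the count of 4 of 9 lies below the share of the whole array.

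CD3G, the gamma chain, was well above background on all 27 arrays. Its levels were 0.79 to 2.66 (median 1.82) at the early stage, −0.57 to 1.64 (median 0.30) at the middle stage and 0.17 to 3.80 (median 2.72) at the late stage. The middle level was below the early level in 9 of 9 cattle. The late level was above the middle level in 8 of 9, with animal 9, at 0.17 the lowest late array, as the exception. In the same 8 cattle the middle level was the lowest and the late level the highest, the course of SLA2. In limma CD3G changed by −1.33 (SE 0.32, adjusted P = 0.00148) in the first period and by 2.08 (SE 0.32, adjusted P = 1.71e-05) in the second. Over the total period the change of 0.74 (SE 0.32) was not called (adjusted P = 0.117), and without animal 9 it was 1.12 (adjusted P = 0.00166). The stages overlapped in all 3 comparisons.

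CD3D, the delta chain, had levels of −0.82 to 0.50 (median −0.49) at the early stage, −2.45 to −0.61 (median −1.82) at the middle stage and −1.17 to 0.61 (median −0.12) at the late stage. Middle animals 1 and 2 were the only middle arrays on which it was well above background, while all early and late arrays were. The middle level was the lowest in 9 of 9 cattle and the late level the highest in 5 of 9. The changes were −1.32 (SE 0.25, adjusted P = 0.000152) and 1.49 (SE 0.25, adjusted P = 3.19e-05), and the total change of 0.17 (SE 0.25, adjusted P = 0.704) had a 95% interval of −0.35 to 0.69. With normexp background correction, which adds an offset and draws dim signals together, the first change of CD3D was −0.07 (adjusted P = 0.427) and the second 0.17, still called.

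CD3E, the epsilon chain, lies beside these 2 genes on the chromosome and moved against them. Its levels were −1.63 to −0.10 (median −1.20) at the early stage, −1.61 to 0.37 (median −0.66) at the middle stage and −3.42 to −1.47 (median −2.25) at the late stage, with 9, 8 and 7 arrays well above background. The middle level was the highest in 8 of 9 cattle and the late level lay below the middle level in 9 of 9. Its changes were 0.62 (SE 0.21, adjusted P = 0.0144), −1.69 (SE 0.21, adjusted P = 1.28e-06) and −1.07 (SE 0.21, adjusted P = 0.00136). The rise at the middle stage depended on the scaling: with cyclic loess on bright probes the first change was −0.48 and the second −0.42, neither of them called (adjusted P = 0.0587 and 0.0890), and when slides were a random block the first was 0.52 (adjusted P = 0.202). The fall from early to late was −0.90 and called under cyclic loess, −0.14 with normexp (adjusted P = 0.131) and −1.22 with slides as a random block (adjusted P = 0.139).

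CD247, the zeta chain, was well above background on all arrays, at 2.72 to 4.58 (median 3.14), 1.98 to 3.70 (median 2.72) and 2.56 to 3.53 (median 2.75) at the 3 stages. It was lower at the middle than at the early stage in 8 of 9 cattle, by 0.44 on average (change −0.44, SE 0.17, adjusted P = 0.0328). That call was lost at the 75th percentile, quantile and cyclic loess scalings and without animals 1, 4, 5 or 8 (adjusted P = 0.0509 to 0.110). It did not rise again by the test, with a second change of 0.12 (95% interval −0.25 to 0.48, adjusted P = 0.563). With normexp that change was 0.63 (adjusted P = 0.00186). Normexp also raised the median second change of probes well above background on all arrays, to 0.54 from 0.09.

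**Figure D2:**
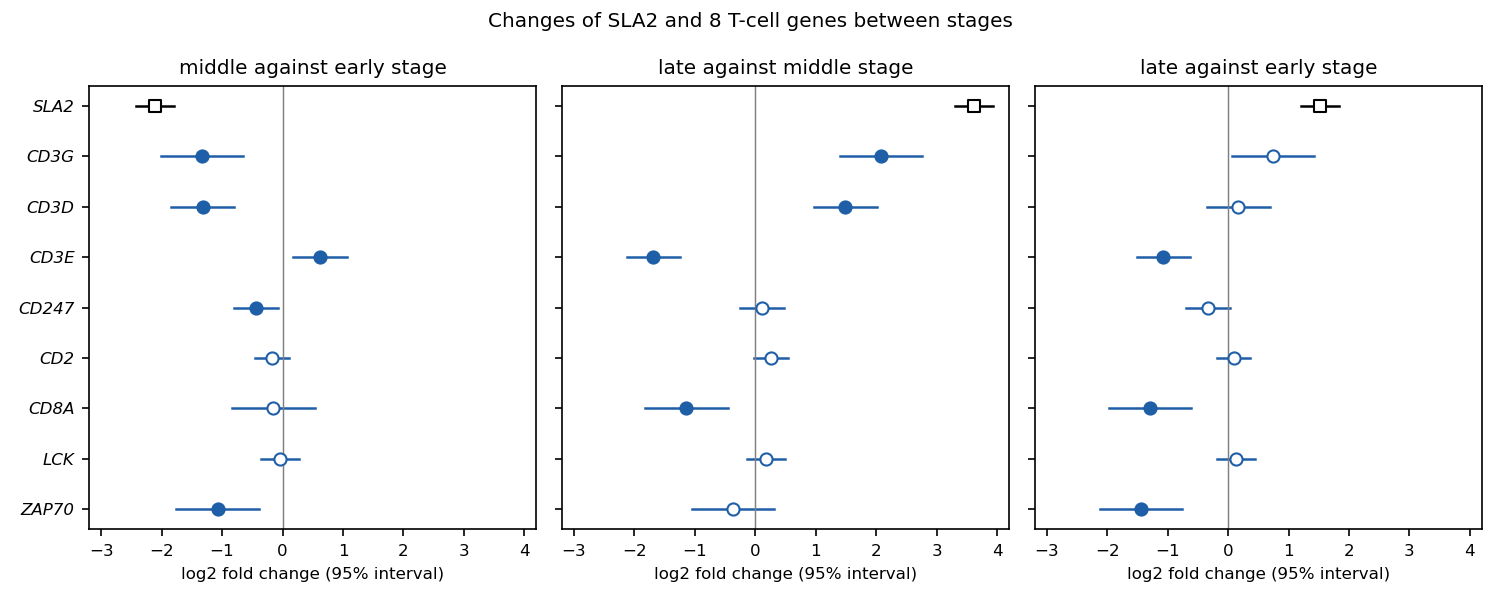
Log2 fold change (horizontal axis, with its 95% interval from limma) of SLA2 and 8 T-cell genes in the 3 comparisons, filled where called. SLA2 (square) was not tested, and since it was chosen for its course, its interval is not to be read as a test. CD4, not above background, is left out. CD3G and CD3D lie below 0 in the first panel and above 0 in the second, CD3E the other way round, and CD3E, CD8A and ZAP70 lie below 0 in the third.

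Of the coreceptors, CD4 gave no level, because its probe was not well above background on any of 27 arrays. Its differences passed the test in both periods (higher at the middle stage), but they are differences between dim spots on arrays of unequal brightness and carry no fold. Without CD4, 8 genes remain. Of these, 5 were called from early to middle, 4 from middle to late and 3 from early to late. In the contrast of early and late against middle 3 were called. The shares of all probes called were 66.5%, 71.5%, 20% and 73.1%, in the same order. CD8A, the alpha chain of CD8, was measured on 9 early, 7 middle and 9 late arrays. Its levels were −1.13 to 1.07 (median −0.47), −1.97 to 1.36 (median −0.76) and −2.46 to −0.33 (median −1.71). Early and middle levels did not differ by the test (change −0.15, 95% interval −0.83 to 0.53, adjusted P = 0.697), and the late level was lower than the middle level by 1.14 on average (change −1.14, SE 0.33, adjusted P = 0.00424) and than the early level in 8 of 9 cattle (change −1.29, SE 0.33, adjusted P = 0.00863). Under cyclic loess CD8A fell already in the first period (−1.11, adjusted P = 0.00698) and hardly moved in the second (−0.05, adjusted P = 0.905).

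CD2, an adhesion receptor of T and NK cells, and LCK, the kinase that starts the cascade, stood well above background on each of 27 arrays. CD2 ran from −0.10 to 0.99 (median 0.21), from −0.36 to 0.43 (median 0.16) and from 0.08 to 0.64 (median 0.34) at the 3 stages. Its changes were −0.17 (95% interval −0.45 to 0.11, adjusted P = 0.268) and 0.26 (95% interval −0.02 to 0.54, adjusted P = 0.0870), and under cyclic loess they became −0.68 and 0.79, both called. LCK ran from 1.75 to 2.79 (median 2.17), from 1.57 to 2.53 (median 2.23) and from 1.84 to 2.85 (median 2.35). Its changes were −0.04 (95% interval −0.35 to 0.27) and 0.18 (95% interval −0.13 to 0.48), not called. The second became 0.43 with normexp (adjusted P = 0.0147), beside a median of 0.54 for probes well above background on all arrays.

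ZAP70, the kinase that docks on the CD3 and zeta tails, stepped down and stayed down. Its levels were −1.27 to 1.56 (median −0.11), −2.66 to 0.13 (median −0.87) and −2.90 to −0.07 (median −1.48), with 9, 5 and 8 arrays well above background. The late level lay below the early level in 8 of 9 cattle, and the change was −1.07 (SE 0.33, adjusted P = 0.00716) from early to middle, −0.36 (SE 0.33, adjusted P = 0.324) from middle to late and −1.44 (SE 0.33, adjusted P = 0.00405) from early to late. With normexp the first change was −0.12 (adjusted P = 0.127), and with cyclic loess it was −2.07 and followed by an increase of 0.78 that was not called.

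By comparison, 6 of the 9 genes were called in the first period (CD3E and CD4 higher, CD3D, CD3G, CD247 and ZAP70 lower) where 66.5% of all probes were called, 45.3% higher and 21.2% lower. In the second period 5 of 9 were called (CD3D and CD3G higher, CD3E, CD8A and CD4 lower) against 71.5% of all probes, 26.7% higher and 44.8% lower. Over the total period 3 of 9 were called, CD3E, CD8A and ZAP70, all lower, against 20% of all probes, 10.9% higher and 9.02% lower. None of the 9 showed groups without overlap in any comparison, which 6.22% of probes showed upward and 6.71% downward in the first period, 10.1% and 10.5% in the second, and 3.95% and 2.52% over the total period.

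The batch of arrays moved several of these values. With the slide as a random block none of the 9 was called over the total period (4 had an unadjusted P below 0.05), with 248 of 15008 probes called in all. With the slide as a fixed block, where the first period alone can be estimated and rests on early animal 9, none of the 9 was called (0 at an unadjusted P below 0.05) among 1225 probes called, and CD3G (−1.51) and CD3D (−1.59) kept their sign. On slide 2 alone, early animal 9 against middle animals 1 to 7, CD3G stood at −1.95, CD3D at −2.11 and CD3E at −0.54, values that rest on 1 early array in a fit that called 7 of 15002 probes. The first scan day held all early arrays and 7 middle ones. Within it 5 of the 9 were called, in a fit that called 8590 of 15008 probes. There CD3G changed by −1.31, CD3D by −1.10 and CD3E by 0.60. Without animal 9 at any stage, CD3G changed by −1.28 and 2.39, CD3D by −1.17 and 1.56, and CD3E by 0.64 and −1.60, all called.

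**Figure D3:**
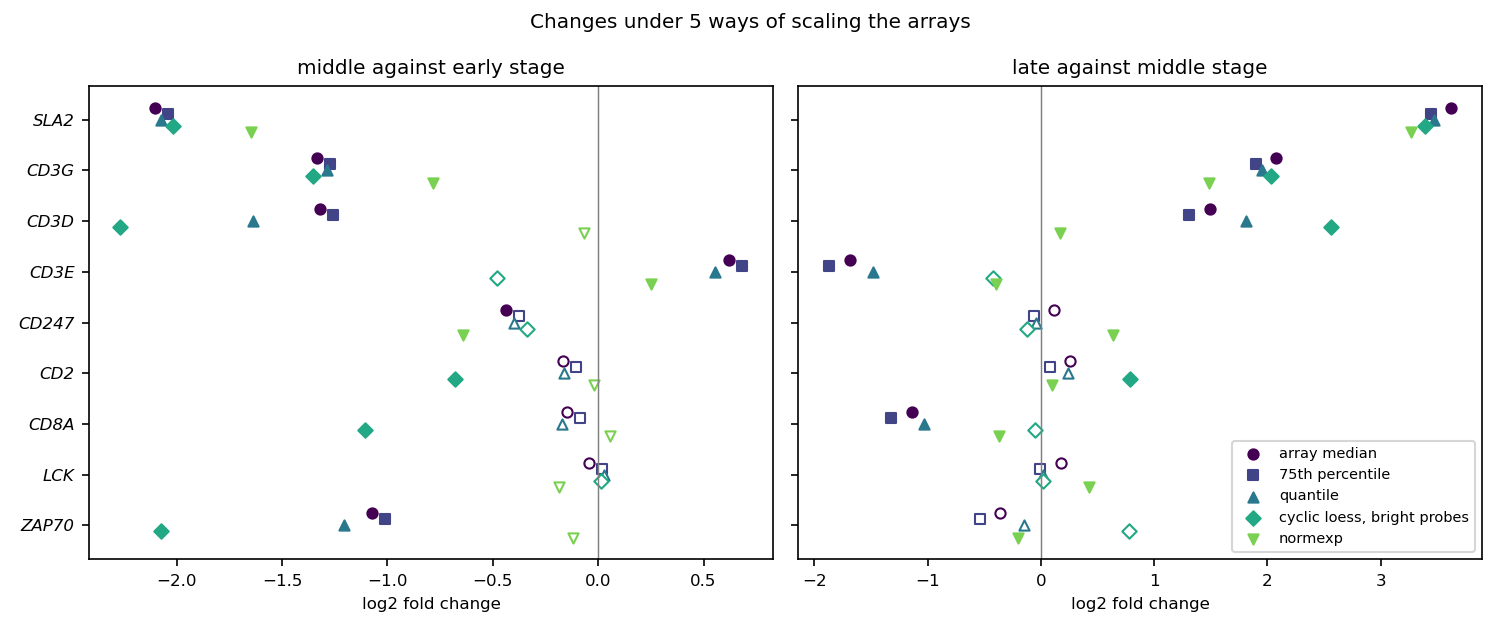
Log2 fold change (horizontal axis) of SLA2 and 8 T-cell genes in the first (left) and second period (right) under 5 ways of scaling or background correction, filled where the adjusted P was below 0.05. SLA2 was chosen for this course, so the fill of its points is not to be read as a test. CD3G stays below 0 on the left and above 0 on the right in all 5, while CD3E changes side on the left under cyclic loess (−0.48).

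Likeness to SLA2 was also measured across the arrays, as the Pearson correlation over 27 arrays after the mean of each animal had been subtracted, among 10124 probes. These points share animals and slides and differ mostly by stage, so that the values are a description. The 5 most similar probes were those of LAMP3, a lysosomal membrane protein of mature dendritic cells (r = 0.978), LOC614775 (r = 0.976), the organic anion transporter SLC22A8 (r = 0.976), SERINC2 (r = 0.974) and the mitochondrial ubiquitin ligase MARCH5 (r = 0.974), and 317 probes had r above 0.9. CD3G ranked 672nd (r = 0.863) and CD3D 905th (r = 0.841). CD2 (r = 0.540), LCK (r = 0.267), CD247 (r = 0.208) and ZAP70 (r = −0.09) followed, and CD8A (r = −0.50) and CD3E (r = −0.840) ran against it.

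The paralog SLA, which shares the domain build of SLA2, followed the reverse course. Its levels were −1.12 to −0.09 at the early, −0.95 to 0.05 at the middle and −1.69 to −0.77 at the late stage, and its correlation with SLA2 across the arrays was −0.848. The changes of SLA were 0.54 in the first period and −0.97 in the second, both called, and under cyclic loess −0.41 and 0.10.

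Within a stage, where the stages no longer set the correlation, SLA2 was compared with each of the 9 genes across the 9 cattle, which gave 27 relations tested by two-sided exact permutation. At the early stage SLA2 and CD2 had r = 0.925 (exact permutation P = 0.00195, adjusted P = 0.0527 over 27 relations) and rho = 0.933 (exact permutation P = 0.000750, adjusted P = 0.0202). Without the 2 animals farthest from the median of SLA2, animal 9 among them, r was 0.495, so that the relation rested in part on those animals. It stood at r = 0.153 at the middle stage (exact permutation P = 0.695) and r = 0.637 at the late stage (exact permutation P = 0.0714, adjusted P = 0.311). For CD3G the within-stage r with SLA2 was 0.130, 0.620 and 0.081, and for CD3D 0.772, 0.272 and 0.428, none with an adjusted P below 0.05. All 27 values of r lay between −0.325 and 0.925, and no Pearson relation passed the adjusted threshold.

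Among themselves, CD3D and CD3G had r = 0.573, 0.722 and 0.674 across the 9 cattle at the early, middle and late stages (exact permutation P = 0.0932, 0.0253 and 0.0366, adjusted over 9 relations P = 0.210, 0.165 and 0.165). For these 3 values rho was 0.70, 0.50 and 0.62, and r without the 2 animals farthest from the median of CD3D was 0.575, 0.290 and 0.551. CD3E and CD3G had r = 0.387, 0.433 and −0.166, and CD3D and CD3E r = 0.772, 0.031 and 0.305, again with no adjusted P below 0.05.

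The wider T-cell program was read from 6 lists with 121 genes on the array, of which 59 stood well above background throughout at least 1 stage and 18 on none of 27 arrays. Of the 121 genes, 6 fell and then rose with both changes called (4.96%), against 18.6% of all probes: LCP2, NCK1, PTPN6, CD48, TCF7 and GATA3. The reverse course, a rise and then a fall, was called for 47 (38.8%), against 38% of all probes. Among the 59 genes above background in a whole stage, 6 (10.2%) fell and then rose and 14 (23.7%) rose and then fell, against 27% and 22.4% of the 10165 probes of that brightness. Counts of genes higher at the middle stage include many dim probes and depend on the scaling, as given below. Cyclic loess moved the whole array as well. It called 2381 of 15008 probes higher and 5375 lower in the first period, and 5819 higher and 2865 lower in the second. The cyclic loess counts of each list stand beside these numbers, and the percentages of all probes given below belong to the fit without cyclic loess.

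Of 24 genes that relay the receptor signal, 8 were higher and 5 lower at the middle than at the early stage, 6 of the 8 being dim probes, and cyclic loess gave 0 higher and 11 lower. LCP2 (SLP-76), the adaptor that ZAP70 phosphorylates, changed by −1.38 (SE 0.23) and then by 0.54 (SE 0.23; −0.03 with normexp), with 3 middle arrays well above background, and NCK1, an adaptor linked to the cytoskeleton, by −0.97 and then by 0.95 (SE 0.19 each). PLCG1, the phospholipase of the pathway, rose by 0.81 and fell by 1.03 (change −1.03), and GRB2, an adaptor used by all cell types, rose by 0.52; under cyclic loess these first changes were 0.14 and −0.04. In the second period 2 were higher and 12 lower (8 of them dim, against 44.8% of all probes lower), with PTPRC (CD45), the phosphatase of all leukocytes, at −1.25, and cyclic loess gave 8 higher and 4 lower. Over the total period limma called none of the 24 higher (0 at an unadjusted P below 0.05) and 6 lower, which became 3 without animal 3 or 9. Of all probes, 45.3% were higher and 21.2% lower in the first period, and 10.9% and 9.02% over the total period.

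Of 21 brakes on receptor signaling, 10 were higher (4 of them dim) and 3 lower at the middle stage, and 1 was higher and 12 lower (5 dim) in the second period. Of all probes, 45.3% were higher and 21.2% lower in the first period, and 26.7% and 44.8% in the second. Cyclic loess gave 4 higher and 10 lower brakes in the first period, where it called 2381 of 15008 probes higher and 5375 lower. In the second period it gave 7 higher and 2 lower brakes, with 5819 probes higher and 2865 lower. PAG1, which anchors the inhibitory kinase CSK, changed by 1.73 and then by −2.26 (SE 0.20 each), and DGKZ, which consumes diacylglycerol, by 1.23 and then by −1.24 (SE 0.14 each). PTPN6 (SHP-1), a phosphatase also made by epithelia, went the other way, by −1.70 and then by 2.03 (SE 0.18 each). CSK fell by 0.44 in the first period (change −0.44). These 4 kept their signs under quantile, cyclic loess and normexp values.

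Among 23 surface and costimulatory genes, 5 were higher (all dim) and 3 lower at the middle stage, where cyclic loess gave 0 higher and 14 lower, and over the total period 1 was higher and 8 lower. These 9 calls became 5 without animal 1, 6 or 7 and 4 without animal 9. Of all probes, 45.3% were higher and 21.2% lower in the first period, and 10.9% and 9.02% over the total period. CD48, a ligand on leukocytes, changed by −1.04 and then by 1.55 (SE 0.29 each). In the second period CD44 changed by −0.31 and SPN by −0.52; cyclic loess turned SPN to 0.53 and normexp turned CD44 to 0.36.

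Among 22 cytokines and cytokine receptors, limma called 12 higher and none lower at the middle stage (0 lower at an unadjusted P below 0.05), 9 of the 12 on dim probes, and cyclic loess gave 2 higher and 7 lower. For this list and those that follow, 45.3% of all probes were higher and 21.2% lower in the first period. In the second period these shares were 26.7% and 44.8%. IL2RG, the common gamma chain, rose by 1.04 (SE 0.13) and then changed by −0.83, IL2RA rose by 0.63, and LTB changed by −0.75 in the second period. Cyclic loess took IL2RA to 0.12, and normexp took the second changes of IL2RG and LTB to −0.02 and −0.11. Of 17 transcription factors 10 were higher (5 dim) and 2 lower at the middle stage, and 6 higher and 9 lower (5 dim) in the second period, where cyclic loess gave 4 and 3 and then 8 and 3. LEF1 changed by 2.22 and then by −2.13 (SE 0.26 each) and TOX2 by 1.00 and then by −1.92 (SE 0.12 each), while GATA3 changed by −0.83 (−0.02 with normexp) and then by 1.37 (SE 0.21 each), TCF7 by −0.44 in the first period and BCL6 by 0.82 in the second. GATA3, LEF1 and BCL6 are made by epithelial cells as well. Of 14 cytotoxic effectors 7 were higher (6 on dim probes) and 1 lower at the middle stage, and in the second period limma called none higher (0 at an unadjusted P below 0.05) and 9 lower, 7 of them dim, against 44.8% of all probes lower. Cyclic loess gave 1 higher and 3 lower, then 1 higher and 1 lower. GZMM, a granule protease, changed by 2.22 and then by −2.05 (SE 0.26 each), and CCL5, a chemokine of activated T cells, by −1.72 (SE 0.34) in the first period.

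**Figure D4:**
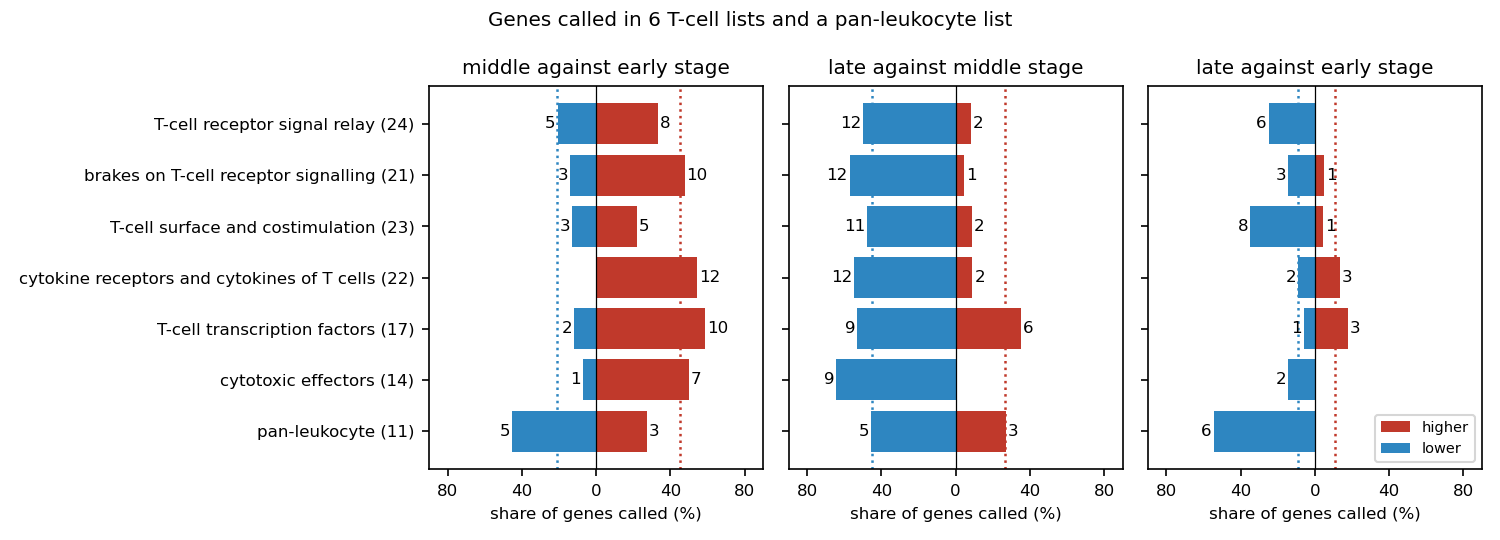
Share of the genes of each list called higher (red, to the right) or lower (blue, to the left) in each comparison, in percent of its genes on the array (number in parentheses), with the counts beside the bars and dotted lines at the share of all probes called. The pan-leukocyte bar of late against early reaches 6 of 11 genes, to the left.

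Genes of a pan-leukocyte list, which includes CD37 and CD74, were read beside these changes. Of 11 pan-leukocyte genes, 3 were higher and 5 lower in the first period, and 3 higher and 5 lower in the second. Over the total period limma called none higher (1 at an unadjusted P below 0.05) and 6 lower, against 9.02% of all probes lower. CD48 (0.50) and RAC2 (0.27) stood above 0 in that period, not called. Of the T-cell genes, CD3E, CD8A and ZAP70 were called lower over it. CD3G (0.74), CD3D (0.17), LCK (0.13) and CD2 (0.09) stood above 0 and CD247 (−0.32) below it, none of them called. The median change of the pan-leukocyte genes over the total period was −0.67, against 0.03 for all probes. The mean level of the 10 of them that were well above background in a whole stage ran from 2.44 to 3.79 at the early, 2.02 to 3.05 at the middle and 1.97 to 2.97 at the late stage. In limma none of the 11 was called with normexp (4 at an unadjusted P below 0.05) or with slides taken as a random block (5). Those fits called 1195 and 248 of 15008 probes over the total period. The count of 6 became 3 without animal 1, 3, 5 or 9 and 2 without animal 4 or 6. Their part in the changes of the T-cell genes was not tested. The macrophage and monocyte genes were called in 0 of 11 cases over the total period by limma (0 at an unadjusted P below 0.05), with a median change of −0.02, and of 9 NK-cell genes 1 was lower. Without animal 2 these counts were 1 and 2.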

How the data were processed

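The authors extracted RNA from 27 RE biopsies, labeled it with cyanine 3 and deposited the scanner output of 27 arrays, whose intensity values Agilent Feature Extraction (version 11.0.1.1 in the output, 9.5 in the submitters' processing notes) gives after background subtraction; the flags for spots well above background, saturated or outlying are theirs. The extraction text of the labels names neutrophils and liver although every sample is labelled rumen epithelium, so markers of both were checked. The authors also deposited log2 values (the series matrix), centered at about the 75th percentile of the array, and they served as an alternative.

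Of 15646 spots, 15110 were not controls and held 15008 probes. The log2 processed signal minus the array median was used, outlier spots were left missing, spots of a probe were averaged, and limma 3.58.1 in R 4.3.3 fitted 3 stage means with the animal as a block, since every stage holds the same 9 animals. The block is the number in the label, taken as the animal (mean correlation of deviations 0.232 within a number and −0.028 between numbers). Of 27 pairs of arrays of equal number, 23 correlated above 0, and the lowest value was −0.147. Exact permutation tests ran in Python 3.11.15. The steps were tested on simulated data. Members and lists were chosen with earlier results of these data known. From each T-cell list, up to 2 largest rises and 2 largest falls per period were named among genes called and bright (well above background) throughout a compared stage, and SLA and the 5 probes most similar to SLA2 were named as well; some genes that this rule names are not reported here. The symbols of 9 members matched a RefSeq gene table by accession. Alternatives were other scalings, normexp with an offset of 50, a filter on dim probes, outlier spots kept, the series matrix, no animal block, slide and scan-day settings, the methods' paired t-test with Benjamini-Hochberg adjustment, the compared stages alone, the mean of the probes of a gene, and each animal left out. Depth has no meaning for arrays; 9 arrays a stage and signal over background limit the precision.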

Additional observations from a re-analysis of the deposited data

Results flagged for a closer look

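In 4 of 30 groups of 9 arrays (10 genes at 3 stages) 1 array stood apart from the rest by Dixon's test, where chance flags about 1 group in 20. All 4 were the early array of animal 9, the highest of its group. The gap to the nearest array, as a part of the range of the group, was 0.63 for CD3D (level 0.50, next −0.33), 0.557 for CD3E (−0.10, next −0.96), 0.705 for CD247 (4.58, next 3.27) and 0.533 for CD2 (0.99, next 0.41), against a limit of 0.493. This array was the single early array on slide 2. Without animal 9 the first-period changes were −1.17 for CD3D, 0.64 for CD3E, −0.38 for CD247 and −0.09 for CD2, the first 3 of them called.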

How the results depend on the processing

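Of 9 T-cell genes, the 6 called in the first period became 0 with the slide as a fixed block (0 at an unadjusted P below 0.05 in limma) and 0 on slide 2 alone (5 unadjusted), a fit on 1 early array that called 7 of 15002 probes and says nothing about stability. The 5 of the second period became 3 with cyclic loess and 9 with normexp, which called 8684 and 11895 of 15008 probes. The 3 of the total period became 0 with the slide as a random block (4 unadjusted), which called 248 of 15008 probes. With no replicate block the counts were 5, 5, 3 and 4 for the first, second and total period and for early and late against middle, where the fit with the block gave 6, 5, 3 and 4. The Pearson relations of SLA2 within a stage that passed the adjusted threshold numbered 0 (1 by Spearman's rho, CD2 at the early stage), and 1 with quantile and with cyclic loess values (CD2, early stage). Leaving out each animal gave 5 to 6 genes in the first period, 5 in each case in the second, 3 to 4 over the total period, 4 to 6 for early and late against middle and 0 to 1 relations. CD3E changed direction at the middle stage under cyclic loess (−0.48 in the first period, 0.029 for early and late against middle); the cause was not tested. Its value of −0.54 on slide 2 alone rests on the early array of animal 9. Of 856 single-gene values under the alternatives, 800 stayed on their side of the threshold, 35 lost it, 18 gained it and 3 reversed (25 of the 800, called in neither fit, changed sign). The 856 include values of SLA2, which was chosen for its course, and of CD4, which gave no level. They are thus no measure of how stable the other genes were. Of 1634 counts for the gene lists, 1342 stayed within 1.5 times the main count and 292 did not. The mean of several probes could change nothing, since each member has 1 probe. Its values repeat the main ones and count as unchanged in both totals, also for the lists. Slide as a fixed block and the slide and scan-day subsets could not be fitted for the late stage, whose slides held no other stage. Signal over background limits CD4 throughout, and CD3D, ZAP70, CD8A and CD3E on some arrays.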
